A study of Mus musculus with 12 samples.

Results

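The stem cell factor receptor Kit, its ligand Kitl, the transcription factors Mitf and Sox10, and the pigment genes Tyr, Tyrp1, Dct, Oca2, Pmel and Mlana were followed by RNA sequencing in wounded skin of diabetic mice. These 10 genes were picked by symbol from the 29956 named genes of the deposited table. Kit and Mitf were picked because their levels moved in opposite directions in wounds given Staphylococcus aureus. The other 8 were picked as melanocyte genes, although Kitl, the ligand, is made by other skin cells and is no melanocyte marker. All differences of Kit and Mitf share libraries with that choice and are given as a description, without a test.

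Every mouse carried B6.BKS(D)-Leprdb/db. This genotype disrupts signalling by the leptin receptor and produces obesity and diabetes, so no group was free of diabetes. No mouse was unwounded. Full-thickness punch wounds in the back were given Alcaligenes faecalis, a Gram-negative bacterium, in buffered saline, S. aureus, a Gram-positive skin pathogen, in buffered saline, or vehicle, which was buffered saline holding 10% glycerol. Skin was collected on day 3 from 4 mice per group, so that each of the 12 libraries was read as 1 mouse. Only the vehicle is described as holding glycerol, and whether the bacteria were also given in glycerol is not stated. In comparisons with vehicle, bacteria and a possible difference in glycerol therefore cannot be told apart. Library totals were 42.2 to 71.3 M (mega) estimated counts with A. faecalis, 38.4 to 58.4 M with S. aureus and 51.9 to 62.4 M with vehicle. Levels are CPM, counts per M of library size after scaling by the trimmed mean of M-values (TMM), with no correction for gene length, so they are compared between groups and not between genes. Summed levels of 10 skin markers (keratins, loricrin, filaggrin and dermal collagens among them) were 15159 to 17652 CPM in A. faecalis wounds, 17370 to 21007 CPM in S. aureus wounds and 16117 to 25492 CPM in vehicle wounds. Vehicle replicate 3 stood apart, with a summed level of 10 adipocyte genes of 8456 CPM.

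Melanocytes are neural crest cells that sit mainly in the hair follicles of mouse back skin and pass melanin to the growing hair. Binding of Kit ligand to the Kit receptor keeps melanocytes and their precursors alive, and Mitf, together with Sox10, switches on the enzymes that make melanin inside melanosomes. Kit and Mitf are not restricted to pigment cells: mast cells carry both, Kit is also found in some endothelial cells, and forms of Mitf that start from other promoters are made in macrophages and many other cells. In bulk tissue, fewer cells of a type and less RNA per cell cannot be told apart.

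Mitf binds the M-box, whose core is TCATGTG, in the promoters of melanin enzyme genes, and the melanocyte start of Mitf carries a cAMP response element, TGACGTCA. The 250 bases before the start of transcription are shown for the 4 genes in which these letters were found, since they link Mitf to the pigment genes measured here. Sequences are RefSeq's, in the build GRCm38.p6, written 5′ to 3′ on the gene's strand in lower case, with the motif in capitals. Mitf has 3 annotated starts in that table, and start 3, farthest downstream, lies after chr6:97991533-97991782 on the plus strand. The other windows are chr7:87493513-87493762 on the minus strand for Tyr, chr4:80833963-80834212 on the plus strand for Tyrp1 and chr14:118052247-118052496 on the minus strand for Dct.
Mitf start 3: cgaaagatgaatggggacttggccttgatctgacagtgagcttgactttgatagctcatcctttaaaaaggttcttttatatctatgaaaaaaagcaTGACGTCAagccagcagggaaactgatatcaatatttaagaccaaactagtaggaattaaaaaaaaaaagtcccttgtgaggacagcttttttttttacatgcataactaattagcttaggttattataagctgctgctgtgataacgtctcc
Tyr: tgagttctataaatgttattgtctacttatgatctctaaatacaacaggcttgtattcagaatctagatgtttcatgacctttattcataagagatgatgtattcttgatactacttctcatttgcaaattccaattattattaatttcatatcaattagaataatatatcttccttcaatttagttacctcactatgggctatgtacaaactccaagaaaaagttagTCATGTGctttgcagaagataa
Tyrp1: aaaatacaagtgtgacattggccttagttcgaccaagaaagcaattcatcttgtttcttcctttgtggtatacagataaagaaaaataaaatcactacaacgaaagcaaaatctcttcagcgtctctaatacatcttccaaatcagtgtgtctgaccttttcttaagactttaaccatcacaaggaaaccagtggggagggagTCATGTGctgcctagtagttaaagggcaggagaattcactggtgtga
Dct: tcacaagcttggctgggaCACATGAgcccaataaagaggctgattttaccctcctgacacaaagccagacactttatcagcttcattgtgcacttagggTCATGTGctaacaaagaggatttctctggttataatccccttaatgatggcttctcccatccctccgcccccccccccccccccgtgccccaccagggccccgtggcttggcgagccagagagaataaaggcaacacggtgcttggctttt
The M-box core lay 22 to 16 bases before the start of Tyr, 47 to 41 bases before that of Tyrp1 and 151 to 145 bases before that of Dct. In Dct, CACATGA, the same core on the other strand, lay a further distance upstream, at 232 to 226 bases. The cAMP response element lay 153 to 146 bases before start 3 of Mitf. Windows were found for 7 of the 10 genes, and both strands were searched. The M-box core was present in 3.25% of 32817 promoter windows of this length, and the cAMP response element in 1.55%. The general E-box CACGTG, which neither of these motifs contains, was in none of the windows of the 7 genes and in 6.02% of all windows. A match describes the letters only. The deposited table has 1 value per gene, so the 3 starts of Mitf are summed in its level.

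Kit, a receptor tyrosine kinase, was measured at 34.9, 27.9, 32.7 and 34.5 CPM in the 4 A. faecalis libraries, 66.6, 91.3, 76.9 and 66.4 CPM in the S. aureus libraries and 28.2, 40.4, 29.8 and 32.4 CPM in the vehicle libraries. Every S. aureus library lay above every A. faecalis and every vehicle library, whereas the A. faecalis and vehicle libraries overlapped. Group means were 32.5 ± 3.22 CPM in A. faecalis wounds, 75.3 ± 11.7 CPM in S. aureus wounds and 32.7 ± 5.44 CPM in vehicle wounds (SD, n = 4 each). The level with S. aureus was 2.30-fold that with vehicle, a log2 difference of 1.20 (standard error, SE, 0.14). This difference and that between A. faecalis and S. aureus (log2 −1.21, SE 0.14) chose the gene or share libraries with the choice. A. faecalis minus vehicle, which shares the vehicle libraries, was −0.01 (SE 0.13).

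Kitl, the ligand of Kit, is made in skin by keratinocytes, fibroblasts and endothelium. Its level was 120, 60.5, 83.1 and 74.2 CPM in A. faecalis wounds, 96.5, 76.1, 88.2 and 101 CPM in S. aureus wounds and 92.8, 75.1, 125 and 67.2 CPM in vehicle wounds. The 3 groups overlapped throughout, and the spread was wider with A. faecalis (mean 84.4 ± 25.3 CPM) and vehicle (90.0 ± 25.5 CPM) than with S. aureus (90.6 ± 11.1 CPM). S. aureus minus vehicle was 0.01 on the log2 scale (95% interval −0.47 to 0.49, adjusted p = 0.983, edgeR). The A. faecalis values were −0.09 against vehicle (adjusted p = 0.934, edgeR) and −0.10 against S. aureus (adjusted p = 0.801, edgeR). Without vehicle replicate 3, the highest vehicle library, S. aureus minus vehicle was 0.23 (adjusted p = 0.559, edgeR).

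Mitf, the basic helix-loop-helix factor that directs the melanocyte lineage, was measured at 48.9, 54.5, 53.7 and 52.4 CPM in A. faecalis wounds, 36.9, 35.7, 35.5 and 37.8 CPM in S. aureus wounds and 54.4, 49.1, 57.9 and 45.9 CPM in vehicle wounds. All 4 S. aureus libraries lay below all 8 others, close together, and the A. faecalis and vehicle libraries overlapped. Group means were 52.4 ± 2.46 CPM in A. faecalis wounds, 36.5 ± 1.06 CPM in S. aureus wounds and 51.8 ± 5.35 CPM in vehicle wounds. The S. aureus level was 0.703-fold the vehicle level (log2 −0.51, SE 0.08), and A. faecalis minus S. aureus was 0.52 (SE 0.08), both given without a test. For A. faecalis minus vehicle, which shares the vehicle libraries, the log2 difference was 0.02 (SE 0.08). A processed pseudogene, Gm15531, overlaps Mitf on the other strand in the annotation of GRCm38.

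**Figure D1:**
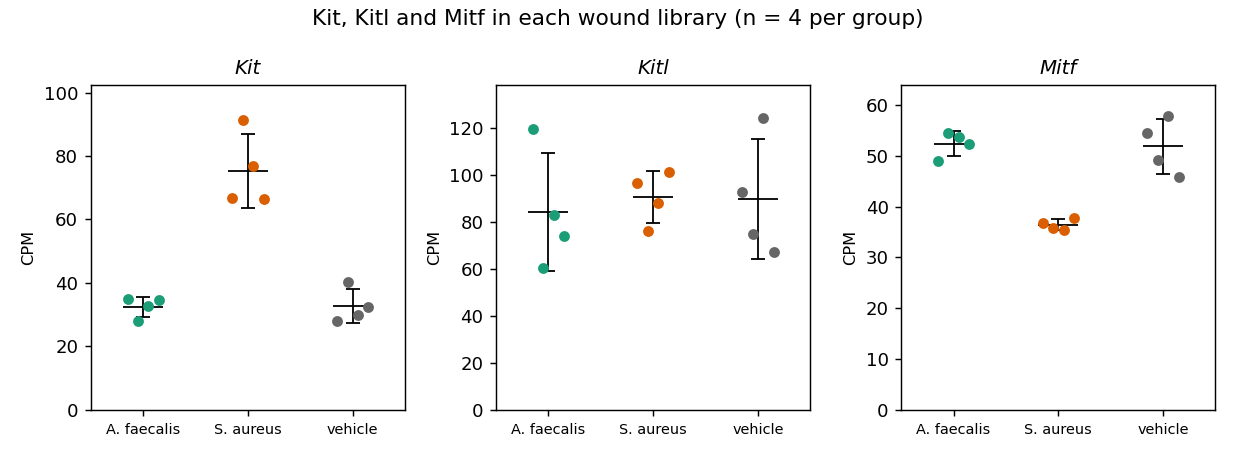
Kit, Kitl and Mitf in CPM (y axis, from 0) in each library of the A. faecalis, S. aureus and vehicle groups (x axis); points are libraries, the long bar is the mean and the short bars the SD (n = 4). Kit with S. aureus lay between 66.4 and 91.3 CPM, above all other libraries, Mitf with S. aureus lay between 35.5 and 37.8 CPM, below all others, and Kitl overlapped across the groups.

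The plot of Kit, Kitl and Mitf by library shows the opposite placement of receptor and transcription factor in the S. aureus group. Leaving out vehicle replicate 3 gave 1.18 for Kit and −0.43 for Mitf in S. aureus minus vehicle. Within groups, after subtraction of each group's mean, Kit and Mitf had a Pearson correlation of −0.57 over the 12 libraries, which share their scaling, and this is a description only.

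Sox10, the neural crest factor that acts upstream of Mitf and is also made by Schwann cells, was listed at 0 (0.00203 estimated counts), 1.06, 2.42 and 3.87 CPM in A. faecalis wounds. It stood at 2.87, 2.61, 3.12 and 2.54 CPM in S. aureus wounds and 2.41, 1.46, 3.08 and 2.84 CPM in vehicle wounds. The A. faecalis libraries spread across the whole range, and no difference passed the test: the adjusted p was 0.905 for A. faecalis minus vehicle (log2 −0.43, SE 0.77), 0.902 for S. aureus minus vehicle (0.19, SE 0.77) and 0.645 for A. faecalis minus S. aureus (−0.62, SE 0.77, edgeR). Without A. faecalis replicate 1, the library near 0, A. faecalis minus vehicle was −0.00203 and A. faecalis minus S. aureus −0.21. Without replicate 4 they were −1.07 and −1.26, and with limma-voom −2.22 and −2.43.

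The melanin enzymes were at low levels in all groups. Tyr, tyrosinase, which makes the first step of melanin synthesis, was at 2.37, 1.54, 2.31 and 2.18 CPM in A. faecalis wounds, 2.04, 2.26, 1.91 and 2.56 CPM in S. aureus wounds and 2.22, 1.90, 1.37 and 2.26 CPM in vehicle wounds. The 3 groups overlapped, and the adjusted p values were 0.902, 0.606 and 0.862 for A. faecalis minus vehicle (log2 0.12, SE 0.20), S. aureus minus vehicle (0.18, SE 0.20) and A. faecalis minus S. aureus (−0.07, SE 0.20, edgeR). The 95% interval of S. aureus minus vehicle for Tyr ran from −0.26 to 0.62. Tyrp1, which acts late in eumelanin synthesis, lay between 0.101 and 0.344 CPM in A. faecalis wounds, 0.121 and 0.247 CPM in S. aureus wounds, and 0.0958 and 0.489 CPM in vehicle wounds. Its summed counts were only 60, 34 and 64 in those groups, and none of its 3 adjusted p values passed (0.966, 0.518 and 0.620, edgeR).

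Dct, dopachrome tautomerase, acts between tyrosinase and Tyrp1. It was measured at 0.321, 0.545, 0.412 and 0.380 CPM in A. faecalis wounds, 0.209, 0.155, 0.102 and 0.0380 CPM in S. aureus wounds and 0.191, 0.192, 0.836 and 0.601 CPM in vehicle wounds. The S. aureus libraries lay below all A. faecalis libraries, while the vehicle libraries fell into a low and a high pair, of which the low pair overlapped S. aureus. S. aureus minus vehicle was −1.87 (SE 0.57, adjusted p = 0.0673, edgeR) and A. faecalis minus S. aureus 1.73 (SE 0.57, adjusted p = 0.0683, edgeR), both just short of the threshold. With DESeq2's Wald test the adjusted p was 0.0216 and 0.0301, and with edgeR on only the A. faecalis and S. aureus groups it was 0.0205. Without vehicle replicate 2, S. aureus minus vehicle had an adjusted p of 0.0481 (log2 −2.10, edgeR). Without vehicle replicate 3, the highest library, it was −1.38 (adjusted p = 0.158, edgeR), and A. faecalis minus S. aureus had an adjusted p of 0.0359 (edgeR). The summed counts behind these values were 99, 23 and 107 with A. faecalis, S. aureus and vehicle. A. faecalis minus vehicle was −0.14 (adjusted p = 0.963, edgeR).

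Oca2 encodes the P protein, a melanosome membrane protein that sets the ion balance and pH in which tyrosinase works; its loss causes oculocutaneous albinism. Oca2 was measured at 1.66, 1.44, 1.81 and 0.617 CPM in A. faecalis wounds, 0.0261, 0.380, 0.0762 and 0.228 CPM in S. aureus wounds and 0.208, 0.479, 0.410 and 0.146 CPM in vehicle wounds. All 4 A. faecalis libraries lay above all 8 others, and the S. aureus and vehicle libraries overlapped. The level with A. faecalis was 7.27-fold that with S. aureus, a log2 difference of 2.86 (SE 0.60, adjusted p = 0.0101, edgeR), higher in 4 of 4 libraries. The call held without each of the 12 libraries in turn (log2 2.54 to 3.54, adjusted p 0.00819 to 0.0347, edgeR), and the highest of these values, 3.54, was that without S. aureus replicate 2. Against vehicle the log2 difference was 2.15 (SE 0.56), with an unadjusted p of 0.00243 and an adjusted p of 0.413 (edgeR), and DESeq2's Wald test gave an adjusted p of 0.0364. S. aureus minus vehicle was −0.71 (SE 0.62, adjusted p = 0.494, edgeR), and −1.39 without S. aureus replicate 2 (adjusted p = 0.227, edgeR). The counts behind these levels were small: 98.1, 100, 114 and 26.1 with A. faecalis and at most 22.2 with S. aureus and 26.0 with vehicle. Oca2 has an annotated antisense gene, Gm44506, on its other strand, and Dct has one, 4930435M08Rik, and use of strand in the counting is not stated, so reads of these partners cannot be told apart from theirs.

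Pmel, the protein that forms the fibrils on which melanin is laid down, was at 1.40, 1.33, 1.11 and 1.26 CPM in A. faecalis wounds, 1.10, 1.11, 0.991 and 1.08 CPM in S. aureus wounds and 1.46, 1.25, 1.31 and 1.55 CPM in vehicle wounds. The S. aureus libraries lay below all libraries of both other groups, by a narrow margin against A. faecalis. Neither difference passed: S. aureus minus vehicle was −0.38 (SE 0.15, adjusted p = 0.136, edgeR) and A. faecalis minus S. aureus 0.25 (SE 0.15, adjusted p = 0.300, edgeR). Pmel lies beside Cdk2 and Dgka, both of which overlap it on the other strand in the annotation of GRCm38, so part of its reads is uncertain. Mlana, a small melanosome protein also called Melan-A, did not pass the filter on low counts and was not tested. Its estimated counts were 0, 6.97, 6.69 and 0 with A. faecalis, 3.98, 0, 1.97 and 0 with S. aureus and 8.19, 10.9, 27.2 and 0 with vehicle. At least 1 library of each group was at 0, and the highest value of all was that of vehicle replicate 3. The summed counts gave ratios of 0.297 for A. faecalis to vehicle (exact 95% interval 0.151 to 0.549) and 0.158 for S. aureus to vehicle (0.0552 to 0.371), and these intervals cover counting error only.

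**Figure D2:**
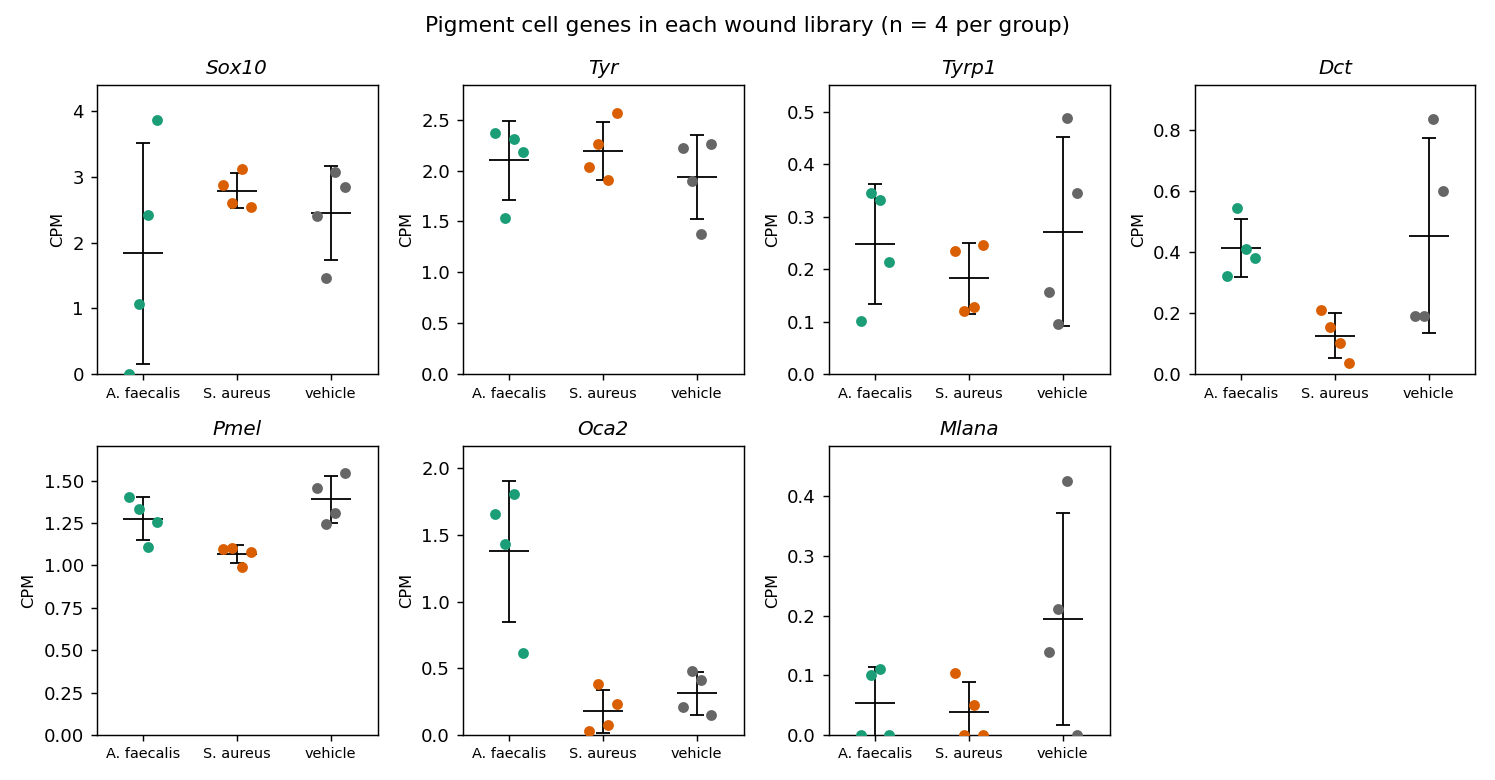
Sox10, Tyr, Tyrp1, Dct, Pmel, Oca2 and Mlana in CPM (y axes, each from 0 and on its own scale) in each library of the A. faecalis, S. aureus and vehicle groups (x axis); points are libraries, the long bar is the mean and the short bars the SD (n = 4). Oca2 with A. faecalis, 0.617 to 1.81 CPM, lay above all other libraries, Dct with S. aureus, 0.0380 to 0.209 CPM, lay below all A. faecalis libraries, and Tyr overlapped across the groups.

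Set against all genes, the counts of calls were as follows. Between A. faecalis and vehicle, 0 of the 7 genes tested besides Kit and Mitf were called, where 0.011% of 18218 genes were called (2 genes), and at an unadjusted p under 0.05 the count was 1 of 7, Oca2, where 7.68% of all genes had such a p. In S. aureus minus vehicle, 0 of these 7 were called, where 6.84% of all genes were. At an unadjusted p under 0.05 the count there was 2 of 7, Dct and Pmel, against 27% of all genes. Between A. faecalis and S. aureus, 1 of these 7, Oca2, was called, where 12.7% of all genes were. Groups did not overlap for 1 of 7 genes (Oca2) in A. faecalis minus vehicle against 4.05% of all genes. They did not overlap for 1 of 7 (Pmel) in S. aureus minus vehicle against 15.1% of all genes, and for 3 of 7 (Dct, Oca2 and Pmel) in A. faecalis minus S. aureus against 23.3%. The summed level of the 6 melanin and melanosome genes (Tyr, Tyrp1, Dct, Oca2, Pmel and Mlana) was 4.65 to 6.08 CPM in A. faecalis wounds, 3.25 to 4.16 CPM in S. aureus wounds and 4.12 to 4.90 CPM in vehicle wounds. Oca2 weighs heavily in this sum, with means of 1.38, 0.178 and 0.311 CPM in those groups, and without it the groups overlapped. The sum is therefore not read as a shift of the whole set, and its levels carry no correction for gene length. A. faecalis minus vehicle and S. aureus minus vehicle share the vehicle libraries, and A. faecalis minus S. aureus shares libraries with both.

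**Figure D3:**
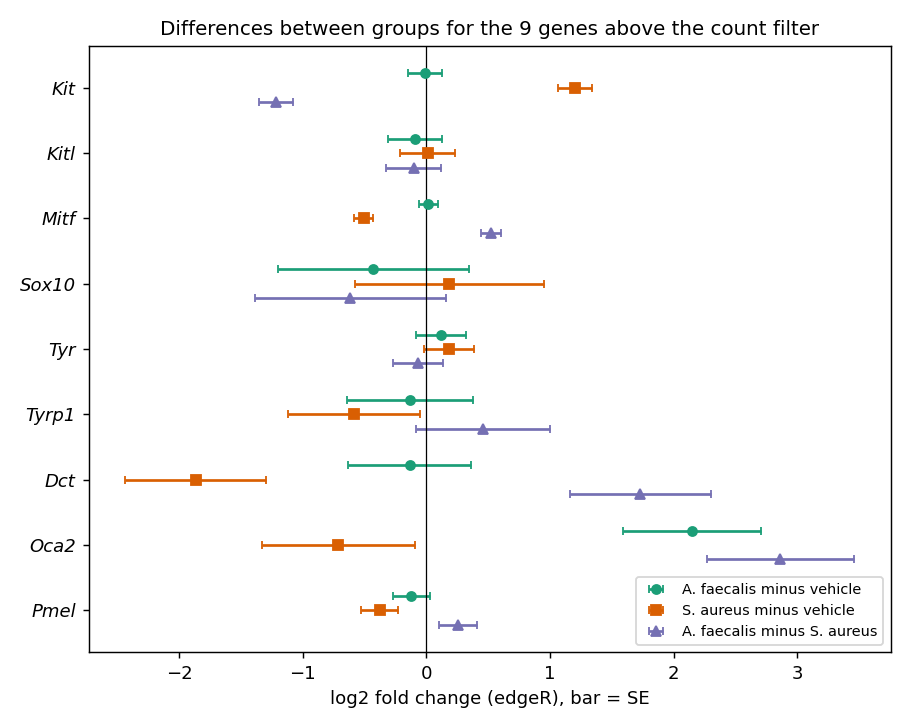
Log2 fold change (x axis) with its SE (bars) of the 9 genes that passed the filter, in A. faecalis minus vehicle (circles), S. aureus minus vehicle (squares) and A. faecalis minus S. aureus (triangles), from edgeR. Kit lay at 1.20 and Mitf at −0.51 in S. aureus minus vehicle, Oca2 at 2.15 and 2.86 in both A. faecalis comparisons, and Sox10, Tyrp1, Dct and Oca2 had the widest errors of the 9.

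In the plot of log2 fold changes by gene, the errors of Kit, Mitf, Pmel and Tyr were narrow beside those of Sox10, Tyrp1, Dct and Oca2. Related genes were read from lists, each beside the same counts over all genes: of these, 3.87% rose and 2.97% fell in S. aureus minus vehicle, 5.06% rose and 7.62% fell in A. faecalis minus S. aureus, and 0.00549% moved each way in A. faecalis minus vehicle. Over all 18218 genes, 8260 estimates were above 0 and 9958 below 0 in S. aureus minus vehicle. Other genes of the melanocyte were read from a list of 19, of which 15 passed the filter. Those that did not pass were Trpm1, a melanocyte ion channel listed at 0 in all 12 libraries, the transporter Slc45a2, the melanosome receptor Gpr143 and Tspan10. Pigment genes were not all absent, since Tyr and Pmel had at least 75.4 and 38.6 estimated counts in every library. In S. aureus minus vehicle 2 of the 15 rose, 1 fell and 12 did not pass, with a median log2 change of −0.19 beside −0.04 over all genes. Those that moved also serve vesicle or copper transport in many other cells. Rab27a, a small GTPase of secretory vesicles, was at 49.1 ± 3.49 CPM in S. aureus wounds and 27.7 ± 8.19 CPM in vehicle wounds (log2 0.83, adjusted p = 0.0264, edgeR). Atp7a, a copper pump, rose by 0.61 (adjusted p = 0.0493, edgeR), a call that held only without vehicle replicate 4 or without S. aureus replicate 1 among the fits that left out 1 library (adjusted p up to 0.143 in the others and in 3 further settings). Myo5a, a motor that carries vesicles along actin, was at 259 ± 14.0 CPM in S. aureus wounds and 372 ± 53.4 CPM in vehicle wounds (log2 −0.52, adjusted p = 0.0193, edgeR). The calls of Rab27a and Myo5a were lost without vehicle replicate 1 or S. aureus replicate 2, 3 or 4 and in a fit of only the 2 groups (adjusted p up to 0.0806 and 0.0687). The more restricted markers Slc24a5, a melanosome exchanger (1.10 ± 0.336 CPM in S. aureus wounds, 0.974 ± 0.237 CPM in vehicle wounds), and Rab38, a melanosome trafficking GTPase (9.37 ± 3.69 CPM in S. aureus wounds, 13.7 ± 3.51 CPM in vehicle wounds), did not pass (adjusted p = 0.780 and 0.205, edgeR).

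Of these 15 genes, 3 rose (Ednrb, Myo5a and Mreg) and 3 fell (Rab27a, Bace2 and Atp7a) in A. faecalis minus S. aureus, with a median of 0.10 beside 0.02 over all genes. Ednrb, the endothelin receptor that melanocyte precursors need and that endothelium and other skin cells carry too, was at 392 ± 56.4 CPM in A. faecalis wounds and 218 ± 25.4 CPM in S. aureus wounds (log2 0.85, SE 0.16, adjusted p = 0.00576, edgeR). None of the 15 was called in A. faecalis minus vehicle. Of 12 genes for secreted signals to pigment cells that passed the filter, among them agouti, endothelins and proopiomelanocortin, 0 were called in S. aureus minus vehicle (median −0.19). None of them was called in A. faecalis minus vehicle either (median −0.31, beside −0.03 over all genes).

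Downstream of Kit, the 28 adaptors, kinases and phosphatases read together gave 1 gene that rose, 1 that fell and 26 that did not pass in S. aureus minus vehicle, with a median of −0.06. Socs1, an inhibitor of cytokine signalling, was at 6.95 ± 1.48 CPM in S. aureus wounds and 3.27 ± 0.850 CPM in vehicle wounds (log2 1.09, adjusted p = 0.0469, edgeR). This call was lost without each of 8 of the 12 libraries (all 4 S. aureus libraries, vehicle replicates 1, 3 and 4 and A. faecalis replicate 3), with no filter and with only the 2 groups (adjusted p up to 0.130). Dok2, an adaptor of blood cells that restrains kinase signalling, was at 26.6 ± 3.31 CPM in S. aureus wounds and 40.5 ± 4.88 CPM in vehicle wounds (log2 −0.61, adjusted p = 0.0180, edgeR), and lost its call without S. aureus replicate 2, 3 or 4 (adjusted p up to 0.0563). Of the 28, 4 rose (Sos1, Pik3cd, Ptpn6 and Vav1) and 2 fell (Cblb and Socs1) in A. faecalis minus S. aureus (median 0.06), and in A. faecalis minus vehicle 0 were called (median 0.02).

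Among 13 relatives, partners and regulators of Mitf that passed the filter, Tbx3 rose, Zeb2 fell and 11 did not pass in S. aureus minus vehicle (median −0.05). Tbx3, a T-box repressor, was at 28.0 ± 1.67 CPM in S. aureus wounds and 16.0 ± 1.07 CPM in vehicle wounds (log2 0.81, SE 0.13, adjusted p = 0.00875, edgeR). Zeb2, a zinc-finger factor needed for Mitf expression in melanocytes and abundant in macrophages, was at 550.0 ± 8.69 CPM in S. aureus wounds and 825 ± 72.7 CPM in vehicle wounds (log2 −0.59, SE 0.10, adjusted p = 0.0107, edgeR). Its 4 S. aureus libraries lay below all vehicle libraries and, as with Mitf, close together (541 to 561 CPM). Both calls held without each of the 12 libraries. With A. faecalis set against S. aureus, Zeb2 was higher by 0.75 (adjusted p = 0.00141, edgeR) and Tbx3 fell by 0.86 (adjusted p = 0.00212, edgeR), and Tfeb rose as well. Tfeb, the close relative of Mitf that drives lysosome genes, was at 22.6 ± 2.36 CPM in S. aureus wounds and 33.0 ± 6.29 CPM in vehicle wounds and did not pass (log2 −0.55, adjusted p = 0.0582, edgeR). With upper-quartile scaling, DESeq2, the replicate block or without A. faecalis replicate 1 it did (adjusted p 0.0232 to 0.0473).

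The Mitf family also drives lysosome genes and, in osteoclasts, matrix-degrading genes, and 18 of these passed the filter. In S. aureus minus vehicle 0 rose, 1 fell and 17 did not pass, with 16 of the 18 estimates below 0 and a median of −0.18. The gene that fell was Ctsb, a lysosomal protease, at 1994 ± 180.3 CPM in S. aureus wounds and 2618 ± 214.7 CPM in vehicle wounds (log2 −0.39, adjusted p = 0.0470, edgeR). Its call held without vehicle replicate 4 and was lost without each of the other 11 libraries, and in 4 further settings (adjusted p up to 0.115). Of the 18, 5 rose and 0 fell in A. faecalis minus S. aureus (median 0.23), among them Lamp1, a lysosome membrane protein (1023 ± 126 CPM in A. faecalis wounds, 708 ± 51.6 CPM in S. aureus wounds, adjusted p = 0.00827, edgeR), Ctsb (log2 0.52, adjusted p = 0.00894, edgeR) and Hexa, a lysosomal glycosidase (log2 0.47, adjusted p = 0.0134, edgeR). None of the 18 was called in A. faecalis minus vehicle (median 0.11). Medians of 10 macrophage markers, given below, went the same way (−0.42 in S. aureus minus vehicle, 0.75 in A. faecalis minus S. aureus). The part of Mitf or of macrophages in the lysosome values was not tested.

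Markers of the other cells that carry Kit, Mitf or Sox10 were read beside these results. For mast cells, 18 of 19 genes passed the filter, and in S. aureus minus vehicle 1 rose, 0 fell and the median was −0.16. The protease genes that define skin mast cells did not pass: Cpa3 was at 32.9 ± 11.7 CPM in S. aureus wounds and 40.5 ± 8.70 CPM in vehicle wounds (log2 −0.30, adjusted p = 0.451, edgeR), and Cma1 at 41.1 ± 10.3 CPM in S. aureus wounds and 48.3 ± 14.4 CPM in vehicle wounds (log2 −0.24, adjusted p = 0.554, edgeR). The gene that rose was Il1rl1, the interleukin-33 receptor, at 87.4 to 111 CPM in S. aureus wounds and 57.1 to 70.1 CPM in vehicle wounds (log2 0.56, adjusted p = 0.0247, edgeR), a call lost without S. aureus replicate 3 or 4 (adjusted p up to 0.0731). The summed level of the 19 genes was 444 to 568 CPM in A. faecalis wounds, 1070 to 1473 CPM in S. aureus wounds and 530 to 975 CPM in vehicle wounds. Without Hdc, the histidine decarboxylase that neutrophils also make, a gene set aside after its values were seen, it was 299 to 384 CPM in A. faecalis wounds, 366 to 519 CPM in S. aureus wounds and 355 to 536 CPM in vehicle wounds. Against S. aureus, the A. faecalis libraries gave 0 of the 18 that rose and 3 that fell (median −0.32), Hdc, Tpsab1 and Il1rl1.

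Of 10 endothelial markers, 3 rose and 0 fell in S. aureus minus vehicle, 9 of 10 estimates were above 0, and the median was 0.37. Flt1, a receptor for vascular endothelial growth factor, rose by 0.76 (adjusted p = 0.0163, edgeR) and Emcn, a sialomucin of venous and capillary endothelium, by 0.78 (adjusted p = 0.0160, edgeR). Both calls were lost without S. aureus replicate 3 or 4 (adjusted p up to 0.0599). The other gene that rose, Pecam1, kept its call without A. faecalis replicate 1 or 2 or S. aureus replicate 1, not without each of the other 9 libraries (adjusted p up to 0.129, edgeR). Its call was also lost with upper-quartile scaling, no filter, only the 2 groups or the replicate block. Summed levels of the 10 were 1056 to 1546 CPM in A. faecalis wounds, 1592 to 1830 CPM in S. aureus wounds and 976 to 1394 CPM in vehicle wounds. The S. aureus libraries thus lay above all others, as they did for Kit. The same held for the sums of the 10 neutrophil genes and of the 19 mast cell genes with Hdc. Among all genes, S. aureus did not overlap vehicle in 15.1% and A. faecalis in 23.3%, in either direction. The part of endothelium in the Kit result was not tested. Of the 10, 0 rose and 2 fell in A. faecalis minus S. aureus (median −0.35), Emcn and Flt1.

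Of 10 macrophage markers, 0 rose and 2 fell in S. aureus minus vehicle, and all 10 estimates were below 0 (median −0.42). Emr1, the gene of the F4/80 antigen, was at 122 ± 17.4 CPM in S. aureus wounds and 258 ± 75.4 CPM in vehicle wounds (log2 −1.07, adjusted p = 0.0244, edgeR), and lost its call without S. aureus replicate 2, 3 or 4 (adjusted p up to 0.0672). Mertk, a receptor for dying cells, was at 58.0 ± 4.49 CPM in S. aureus wounds and 80.5 ± 10.5 CPM in vehicle wounds (log2 −0.47, adjusted p = 0.0241, edgeR), and lost its call without vehicle replicate 1 or 2 or S. aureus replicate 2, 3 or 4 and with only the 2 groups (adjusted p up to 0.0653). Of the 10, 6 rose and 0 fell in A. faecalis minus S. aureus (median 0.75). Summed levels of the 10 were 6038 to 8309 CPM in A. faecalis wounds, 3600 to 4488 CPM in S. aureus wounds and 4268 to 7134 CPM in vehicle wounds, so S. aureus and vehicle overlapped in this sum. The part of macrophages in the Mitf result was not tested.

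Schwann cells, which carry Sox10, gave 0 calls among 16 genes in all 3 comparisons, with medians of −0.20 in A. faecalis minus vehicle, −0.0021 in S. aureus minus vehicle and −0.29 in A. faecalis minus S. aureus. For the hair follicle, where the melanocytes of back skin sit, 12 of 26 genes did not pass the filter, and 1 of the 14 tested was called in S. aureus minus vehicle. That gene was Krt15, a keratin of the follicle bulge and of basal epidermis, at 1.29 ± 0.688 CPM in S. aureus wounds and 24.1 ± 18.6 CPM in vehicle wounds (log2 −4.23, SE 0.61, adjusted p = 0.00791, edgeR). With A. faecalis against S. aureus, Krt15 was higher by 3.98 (adjusted p = 0.00257, edgeR), at 20.4 ± 8.85 CPM in A. faecalis wounds, and it was the 1 gene of the 14 that rose, while Krt86, Foxn1 and Tchh fell. Both calls of Krt15 held without each of the 12 libraries, and S. aureus minus vehicle was −3.52 without vehicle replicate 3. Among 10 neutrophil genes 1, Camp, rose in S. aureus minus vehicle, and all 10 estimates were above 0 (median 1.50). Among 10 adipocyte genes 0 were called, and all 10 estimates were below 0 (median −1.15). Adipocyte sums were 2255 to 3540 CPM in A. faecalis wounds, 1454 to 2513 CPM in S. aureus wounds and 2108 to 8456 CPM in vehicle wounds. S. aureus and vehicle thus overlapped in this sum, and the highest value was that of vehicle replicate 3. Neutrophil sums were 1668 to 3777 CPM in A. faecalis wounds, 9062 to 14231 CPM in S. aureus wounds and 691 to 8424 CPM in vehicle wounds, and their part in the Kit and Mitf results was not tested. Of 10 basal keratinocyte genes 0 were called in S. aureus minus vehicle, and of 10 fibroblast genes 1 rose (Pdgfra) and 2 fell (Dpt and Dpp4).

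**Figure D4:**
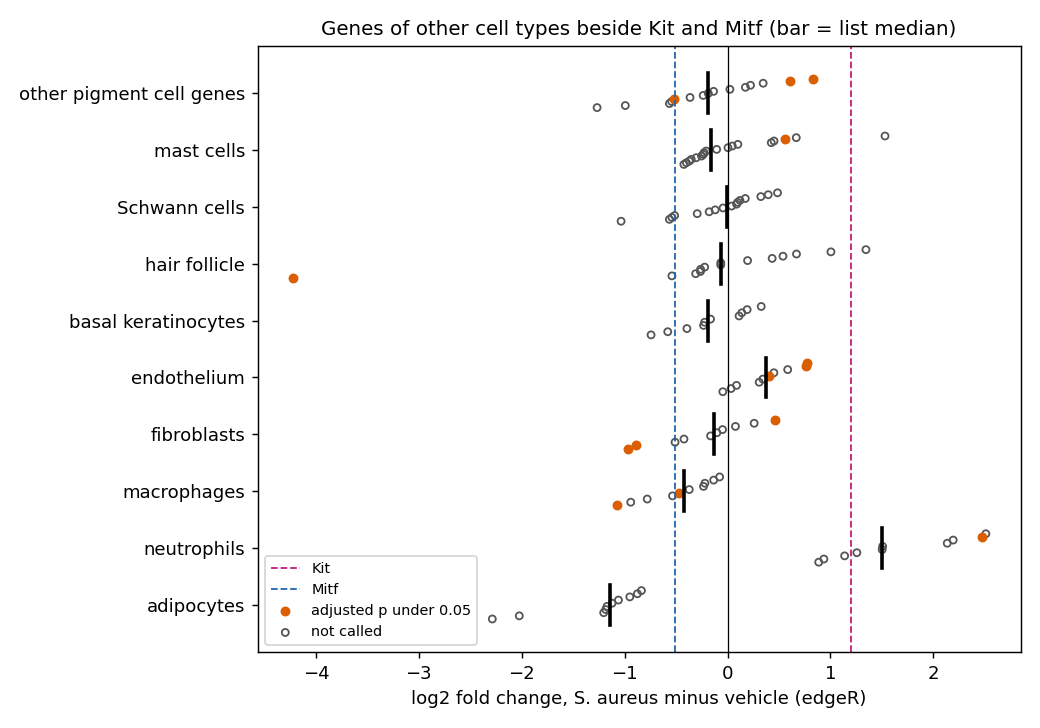
Log2 fold change in S. aureus minus vehicle (x axis) of each gene that passed the filter in 10 lists of cell-type genes (y axis); filled points have an adjusted p under 0.05 (edgeR), the short black bar is the list's median, and the dashed lines stand at Kit (1.20) and Mitf (−0.51). The endothelial median lay at 0.37, the neutrophil median at 1.50, the macrophage median at −0.42, the adipocyte median at −1.15 and the mast cell median at −0.16.

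In the plot of cell-type lists the endothelial and neutrophil genes lie mostly to the right of 0 and the macrophage and adipocyte genes to the left. The lists differ in level and in the number of cells behind them, so the plot places the genes and does not divide the results among cell types.

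The genes whose levels followed Kit and Mitf most closely over the 12 libraries were ranked by Pearson correlation of log2 CPM among 13911 genes with a standard symbol and a mean of at least 1 CPM. These correlations mostly follow the step between the S. aureus libraries and the others, and all libraries share their scaling, so they are a description. Nearest to Kit were Selp (r = 0.98, Spearman's rho 0.94), Kctd5 (0.98), Inhbb (0.97), Pi15 (0.96) and Ets1 (0.96). Selp, which encodes P-selectin of activated endothelium and platelets, was at 39.2 ± 2.83 CPM in A. faecalis wounds, 105 ± 17.9 CPM in S. aureus wounds and 36.9 ± 10.0 CPM in vehicle wounds. Within groups, after subtraction of group means, Selp kept a correlation of 0.85 with Kit. Usp7 (0.92) and Stk35 (0.85) ranked above it there, and Wdr78 (0.84) and Bptf (0.83) next below. Inhbb, a subunit of activin B and inhibin B, was at 63.4 ± 6.08 CPM in A. faecalis wounds, 139 ± 18.9 CPM in S. aureus wounds and 66.8 ± 9.43 CPM in vehicle wounds. Ets1, a transcription factor of endothelium and lymphocytes, was at 163 ± 11.3 CPM in A. faecalis wounds, 278 ± 26.9 CPM in S. aureus wounds and 156 ± 12.7 CPM in vehicle wounds.

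Nearest to Mitf were Sesn1 (r = 0.98, rho 0.90), Tlk1 (0.96), Dnajb14 (0.96), Adcy7 (0.96) and Ercc4 (0.96). Sesn1, a stress-induced inhibitor of growth signalling, was at 59.0 ± 5.26 CPM in A. faecalis wounds, 27.3 ± 3.36 CPM in S. aureus wounds and 55.8 ± 8.20 CPM in vehicle wounds. Adcy7, an adenylyl cyclase of blood cells, was at 95.6 ± 5.15 CPM in A. faecalis wounds, 62.8 ± 4.33 CPM in S. aureus wounds and 93.6 ± 11.2 CPM in vehicle wounds. Tlk1, a chromatin kinase, showed the same placement with a smaller step, at 94.4 ± 3.80 CPM in A. faecalis wounds, 80.1 ± 3.40 CPM in S. aureus wounds and 97.1 ± 5.36 CPM in vehicle wounds. When genes were ranked on deviations from group means instead, 1 of the 5 nearest to Kit (Selp) and 0 of the 5 nearest to Mitf stayed among the nearest 5.

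**Figure D5:**
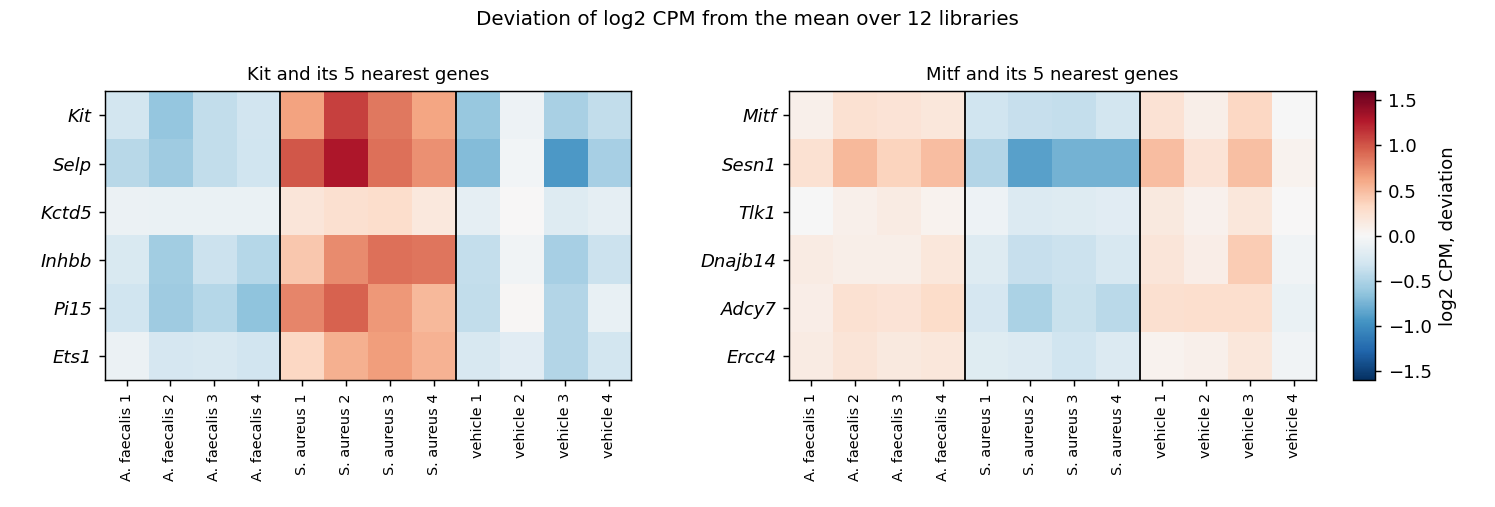
Deviation of log2 CPM from each gene's mean over the 12 libraries (color scale) for Kit with its 5 nearest genes and for Mitf with its 5 nearest genes (rows), by library (columns, vertical lines between groups). The 4 S. aureus libraries are high for Kit and its neighbors and low for Mitf and its neighbors, and vehicle replicate 2 is the vehicle library with the highest Kit, 40.4 CPM.

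The heat map of Kit, Mitf and their nearest genes shows that the step was of unequal size among genes of 1 block, with Selp and Sesn1 moving more than Kctd5 and Tlk1.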

How the data were processed

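RNA of wounded skin was sequenced from 12 mice in 3 groups of 4. Per the labels' protocols, libraries were stranded total RNA after removal of ribosomal RNA. Values in the deposited table were estimated counts for each gene, fractional and not normalized; per the submitters' processing notes the tools included kallisto 0.48.0, FastQC 0.12.1, R 4.1.3 and DESeq2 1.34.0, with the build GRCm39. The step from transcripts to genes and the use of strand are not stated. The titles of the S. aureus samples carry another abbreviation, and the treatment label was used. The table had 1 row without a gene name (0.0091% to 0.0151% of each library), which was left out.

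Estimated counts were rounded to whole numbers and tested in one fit of all 12 libraries with edgeR 4.0.16 in R 4.3.3: TMM scaling, filterByExpr (minimum count 10, minimum total 15; 18218 of 29956 genes kept), a robust two-sided quasi-likelihood test, and Benjamini-Hochberg adjustment over all genes tested, with a call at an adjusted p under 0.05. Log2 CPM for correlations used a prior count of 2. Intervals cover counting error only where summed counts are compared. Each library is a separate mouse per the series' design text. No 2 libraries of a group agreed within sampling noise (chi-square per degree of freedom 28.0 to 460). The code was tested on simulated data.

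The 10 genes and the 15 gene lists were chosen with earlier results of these data known. Named list genes are a part of those given by a rule: the first 2 of each list that passed the filter and up to 3 called members per comparison by smallest adjusted p. The 5 genes nearest to Kit and to Mitf were named by the same rule, other list genes that make up a small count are named without values, and a gene set aside later is said to be so. Promoter windows were read from RefSeq (GRCm38.p6), a build other than that of the counts, and overlapping genes from the GENCODE annotation of GRCm38. Also tried were scaling by DESeq2 size factors or by upper quartile, DESeq2 1.42.0 (Wald test) or limma-voom (limma 3.58.1), no filter or a mean of at least 1 CPM, only the 2 groups compared, a block for the replicate number, and leaving out each library. For the list of secreted signals to pigment cells, 1 comparison is not reported here.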

Additional observations from a re-analysis of the deposited data

How the results depend on the processing

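Kit in S. aureus minus vehicle lay between 1.10 and 1.341 on the log2 scale without each library in turn, and Mitf between −0.56 and −0.43. Both genes were chosen on this comparison, so these ranges are a description and no support for the differences. Oca2 in A. faecalis minus S. aureus was called in every setting in which it was tested. DESeq2's Wald test called more genes than edgeR: 120 against 2 in A. faecalis minus vehicle, with 1 of the genes followed here in place of 0 (Oca2), 2876 against 1246 in S. aureus minus vehicle, with 1 in place of 0 (Dct), and 3474 against 2310 in A. faecalis minus S. aureus, with 2 in place of 1 (Dct and Oca2). With only the 2 groups in the fit, 350 genes were called in S. aureus minus vehicle, and 2 of the genes followed here in A. faecalis minus S. aureus. At a mean of at least 1 CPM this last count was 0, because Oca2 and Dct were no longer tested. Without each library in turn the counts of genes called were 2 to 10, 260 to 1750 and 1313 to 3457 in A. faecalis minus vehicle, S. aureus minus vehicle and A. faecalis minus S. aureus, and those of the genes followed here 0, 0 to 1 and 1 to 2. The share of calls that were higher moved with the scaling in S. aureus minus vehicle, where upper-quartile scaling called 619 higher and 679 lower and TMM 705 and 541. Some signs near 0 turned. In A. faecalis minus vehicle, Kit was 0.00072 with upper-quartile scaling and 0.0052 at a mean of at least 1 CPM, and Dct was 0.12 with limma-voom. Kitl in S. aureus minus vehicle was −0.012 with upper-quartile scaling. Without each library in turn, A. faecalis minus vehicle ranged from −0.060 to 0.12 for Kit, −0.30 to 0.12 for Kitl, −0.034 to 0.085 for Mitf, −0.0061 to 0.25 for Tyr, −0.39 to 0.33 for Tyrp1 and −0.37 to 0.35 for Dct. Kitl ranged from −0.10 to 0.23 in S. aureus minus vehicle and −0.33 to 0.033 in A. faecalis minus S. aureus, and Tyr from −0.14 to 0.063 in A. faecalis minus S. aureus. Ranked on deviations from group means, 1 of the 5 genes nearest to Kit and 0 of those nearest to Mitf were shared. The causes of these changes were not tested.

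No clear pairing by replicate number was seen across the 3 groups: deviations of 12 same-numbered pairs correlated between −0.21 and 0.18. The 3 pairs over 0.1 were all of vehicle with A. faecalis (replicates 2, 3 and 4), and replicate 1 of those groups had 0.070. Vehicle replicate 3 and A. faecalis replicate 1, with unlike numbers, had 0.24. Another pair with unlike numbers, vehicle replicate 3 and S. aureus replicate 1, had 0.30. These correlations cannot exclude a weak pairing. With the replicate number as a block, 2, 1038 and 2120 genes were called in A. faecalis minus vehicle, S. aureus minus vehicle and A. faecalis minus S. aureus, the counts of the genes followed here stayed at 0, 0 and 1, and Kit in A. faecalis minus vehicle was 0.0079. Mlana, with at most 27.2 counts in a library, was tested only with no filter (adjusted p = 0.780, 0.297 and 0.816 in the 3 comparisons, edgeR) and has no value in the other settings.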
